A study of Homo sapiens with 24 samples.

Results

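The interferon response genes are 53 genes that cells switch on when interferon or foreign RNA is detected. They are a list of named genes, drawn up with earlier results of these data known, and all 53 were among the 22925 gene symbols of the deposited table. Of these, 29 could be tested, 4 with a mean of at least 1 FPKM were left out for missing values or single zeros, 16 had a mean under 1 FPKM and 4 were listed at 0 in every library. FPKM are counts of sequenced fragments divided by transcript length and by library size. Cytoplasmic RNA came from U2OS cells, a human osteosarcoma line, that had been transfected with siRNA labelled for the long isoform of Pan3 (the long-labelled series), for the short isoform (short-labelled), for both (both-labelled) or with control siRNA (control). All 4 series received actinomycin D, which blocks transcription, and each was sampled at 0, 0.5, 1, 2, 4 and 6 h, with 1 library for each series and time. The design addresses how mRNA decay changes when isoforms of Pan3 are depleted. PAN3 is the adaptor subunit of a deadenylase that shortens the poly(A) tails of mRNA.

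Interferons bind receptors on the cell surface, and the kinases JAK1 and TYK2 then activate STAT proteins, STAT2 among them. STAT2 binds IRF9, and the complex attaches to the interferon-stimulated response element (ISRE) in the promoters of its target genes. The products sense viral RNA, block entry, translation or budding of viruses, attach the ubiquitin-like protein ISG15 to other proteins, or present antigen. Foreign RNA inside a cell can start the same programme through the sensors encoded by DDX58 and IFIH1.

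The FPKM of a library summed to between 324072.2 and 384287.0. Read totals were not used here, so the depth is unknown and values carry no counting error. PAN3 had 0.376 to 1.70 FPKM in the long-labelled, 1.76 to 4.01 in the short-labelled, 0.411 to 2.49 in the both-labelled and 0 to 2.40 FPKM in the control libraries. PAN3 averaged 0.898 FPKM in the long-labelled, 2.51 in the short-labelled, 1.45 in the both-labelled and 0.988 FPKM in the control libraries, so its average was near the control in the first of these and above it in the other 2. These values were not tested, and the single PAN3 transcript of the table does not separate the isoforms, so every direction below rests on the labels of the series. Each series may stem from a single transfection: the p-values measure the scatter of time points within series, and the siRNA and the culture cannot be told apart. In bulk RNA, fewer cells with a transcript and less transcript in each cell cannot be told apart either. Of 8 bone-lineage markers, RUNX2 and COL1A1 reached 0.5 FPKM in at least 1 library and the other 6 did not. COL1A1 averaged 23.2 FPKM in the long-labelled, 88.2 in the short-labelled, 63.9 in the both-labelled and 11.3 FPKM in the control libraries, with at least 1 library at 0 in each series. RUNX2 averaged 0.2002 FPKM in the long-labelled, 1.12 in the short-labelled, 0.395 in the both-labelled and 0.335 in the control libraries. In the endothelial list CDH5 averaged 0.181 FPKM in the long-labelled, 0.994 in the short-labelled, 0.891 in the both-labelled and 1.24 in the control libraries, again with a 0 in each series. Of 8 leukocyte markers 7 stayed under 0.5 FPKM, PTPRC among them with at most 0.024 FPKM. The eighth, CD68, set the sum of that list at 8.71 to 13.0 FPKM in the long-labelled, 30.9 to 45.6 in the short-labelled, 22.7 to 38.5 in the both-labelled and 13.2 to 19.7 FPKM in the control libraries. CD68 was thus high in the short-labelled and both-labelled series and low in the long-labelled series, as many interferon response genes were. CD14, of the same list and under 0.5 FPKM, ran the other way. It averaged 0.342 FPKM in the long-labelled, 0.083 in the short-labelled, 0.123 in the both-labelled and 0.216 FPKM in the control libraries. The part of these markers in the results was not tested.

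Promoter sequences are shown first because the ISRE is the site through which these genes are known to respond together. The RefSeq promoter table (build GRCh38.p14) matched 43 of the 53 members. Within the 250 bases before the start, the letters GAAANNGAAA were found on either strand in 23 of these 43 (53.5%), against 1061 of all 35116 promoters (3.02%). A match is a description of letters and not a measured site. The stretches below hold the ISRE letters of 8 members that differed between the series, each with up to 40 bases on either side, 5′ to 3′ on the strand of the gene, and with the matching letters, read on either strand, in capitals.
ISG15 (chr1:1013344-1013439, plus strand): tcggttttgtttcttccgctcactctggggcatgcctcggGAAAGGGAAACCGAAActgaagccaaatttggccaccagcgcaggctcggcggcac
IFIT1 (chr10:89392467-89392569, plus strand): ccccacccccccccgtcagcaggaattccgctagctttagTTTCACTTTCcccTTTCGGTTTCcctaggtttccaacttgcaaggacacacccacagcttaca
IFIT3 (chr10:89327801-89327924, plus strand): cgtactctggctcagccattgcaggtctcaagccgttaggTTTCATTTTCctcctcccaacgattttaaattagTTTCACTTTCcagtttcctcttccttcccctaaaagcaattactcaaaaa
HERC5 (chr4:88456954-88457094, plus strand): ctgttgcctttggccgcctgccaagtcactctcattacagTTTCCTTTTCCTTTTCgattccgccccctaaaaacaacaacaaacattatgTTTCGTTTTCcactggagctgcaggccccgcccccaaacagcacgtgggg
IFI44 (chr1:78649731-78649788, plus strand): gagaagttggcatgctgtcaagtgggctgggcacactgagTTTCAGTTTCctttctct
IFIH1 (chr2:162318685-162318883, minus strand): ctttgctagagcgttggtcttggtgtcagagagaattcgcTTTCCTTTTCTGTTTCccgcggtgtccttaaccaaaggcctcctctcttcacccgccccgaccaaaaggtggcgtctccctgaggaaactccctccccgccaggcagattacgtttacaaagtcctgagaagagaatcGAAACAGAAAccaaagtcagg
B2M (chr15:44711333-44711428, plus strand): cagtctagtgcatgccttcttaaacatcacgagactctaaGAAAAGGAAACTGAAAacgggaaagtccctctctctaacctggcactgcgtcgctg
OAS3 (chr12:112938291-112938473, plus strand): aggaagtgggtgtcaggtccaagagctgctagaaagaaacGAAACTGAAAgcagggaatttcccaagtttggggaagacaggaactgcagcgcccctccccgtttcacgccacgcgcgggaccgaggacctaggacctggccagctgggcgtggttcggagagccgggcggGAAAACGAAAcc

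ISG15, HERC5, IFIH1 and B2M carry runs in which matches overlap. OAS3 carries 2 separate matches like IFIT3, although OAS3 and IFIT3 differed in opposite directions between the long-labelled series and the control. Among the 29 tested members, 16 had a match, 9 had none and 4 had no entry in the promoter table. In the long-labelled series, 9 of the 16 members with a match were lower than control and 6 higher, and 4 of the 9 without were lower and 2 higher, where 24.1% of all tested genes were lower and 27.1% higher, each at an adjusted p under 0.05 in limma. The medians of the log2 level differences were -0.16 with a match and -0.24 without.

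Levels over the course were compared on log2(FPKM + 0.1), with each library centred on the median of the 7860 genes tested and time as a block. A gene was called at a Benjamini-Hochberg adjusted p under 0.05 over all 7860 genes in limma. In the long-labelled series 15 of 29 members were lower and 9 higher than control, where 24.1% of all tested genes were lower and 27.1% higher. The short-labelled series had 20 members higher and 5 lower than control, against 32.7% and 30.7% of all genes. The both-labelled series had 20 higher and 7 lower, against 33% and 29% of all genes. The median level difference of the members was -0.22 in the long-labelled series (all genes 0.03), 0.76 in the short-labelled series (0.03) and 0.57 in the both-labelled series (0.03). These 3 comparisons share the control libraries, so they are not independent of each other.

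**Figure D1:**
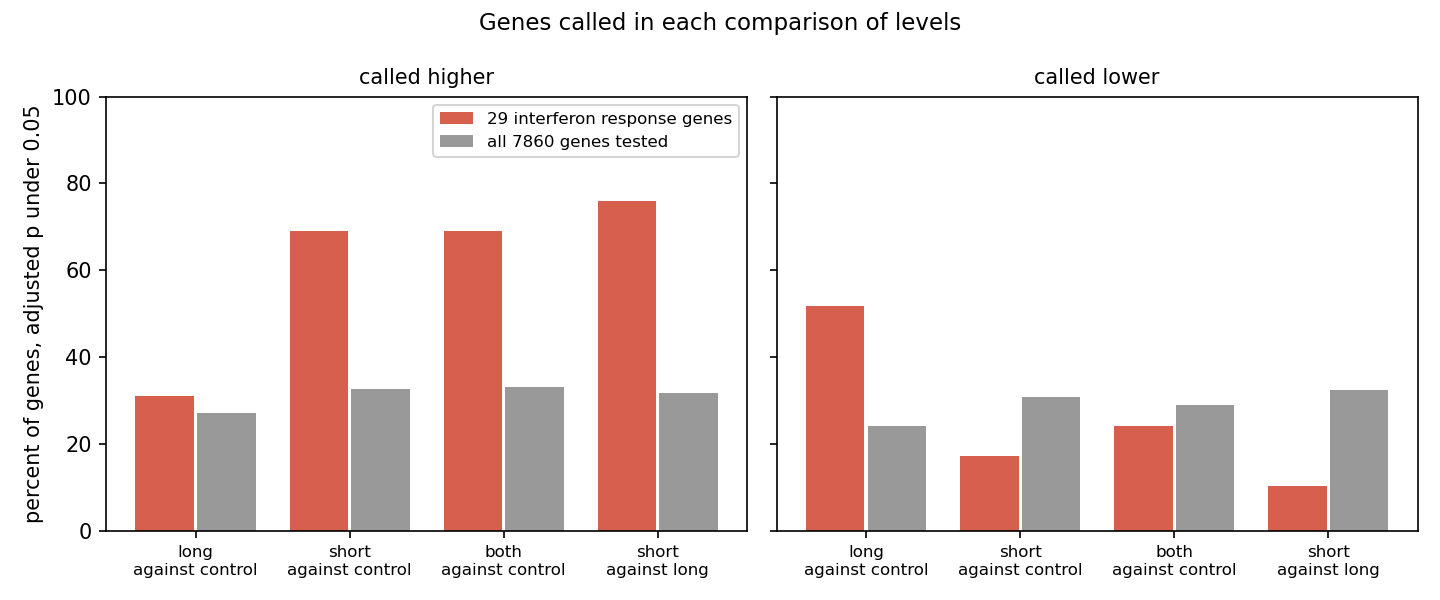
Percent of the 29 tested interferon response genes (red bars) and of all 7860 tested genes (grey bars) that were called higher (left) or lower (right) at an adjusted p under 0.05 in each comparison of levels. Of the members, 15 were lower in the long-labelled series and 20 were higher in the short-labelled series, each relative to control.

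Large differences, of at least 1 log2 unit and called, went the same ways. The long-labelled series had 5 members lower by that much and 1 higher than control, where 4.72% and 4.77% of all genes were. The short-labelled series had 7 higher and 1 lower, against 9.35% and 9.97% of all genes. In the both-labelled series 5 were higher and 0 lower in limma, against 8.84% and 8.55%; OAS3 and ADAR, at -0.97 and -0.88, came nearest. At every one of the 6 times, 13 members were lower in the long-labelled library than in the control library (22.6% of all genes), and 20 were higher in the short-labelled library than in the control library (28.3% of all genes).

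**Figure D2:**
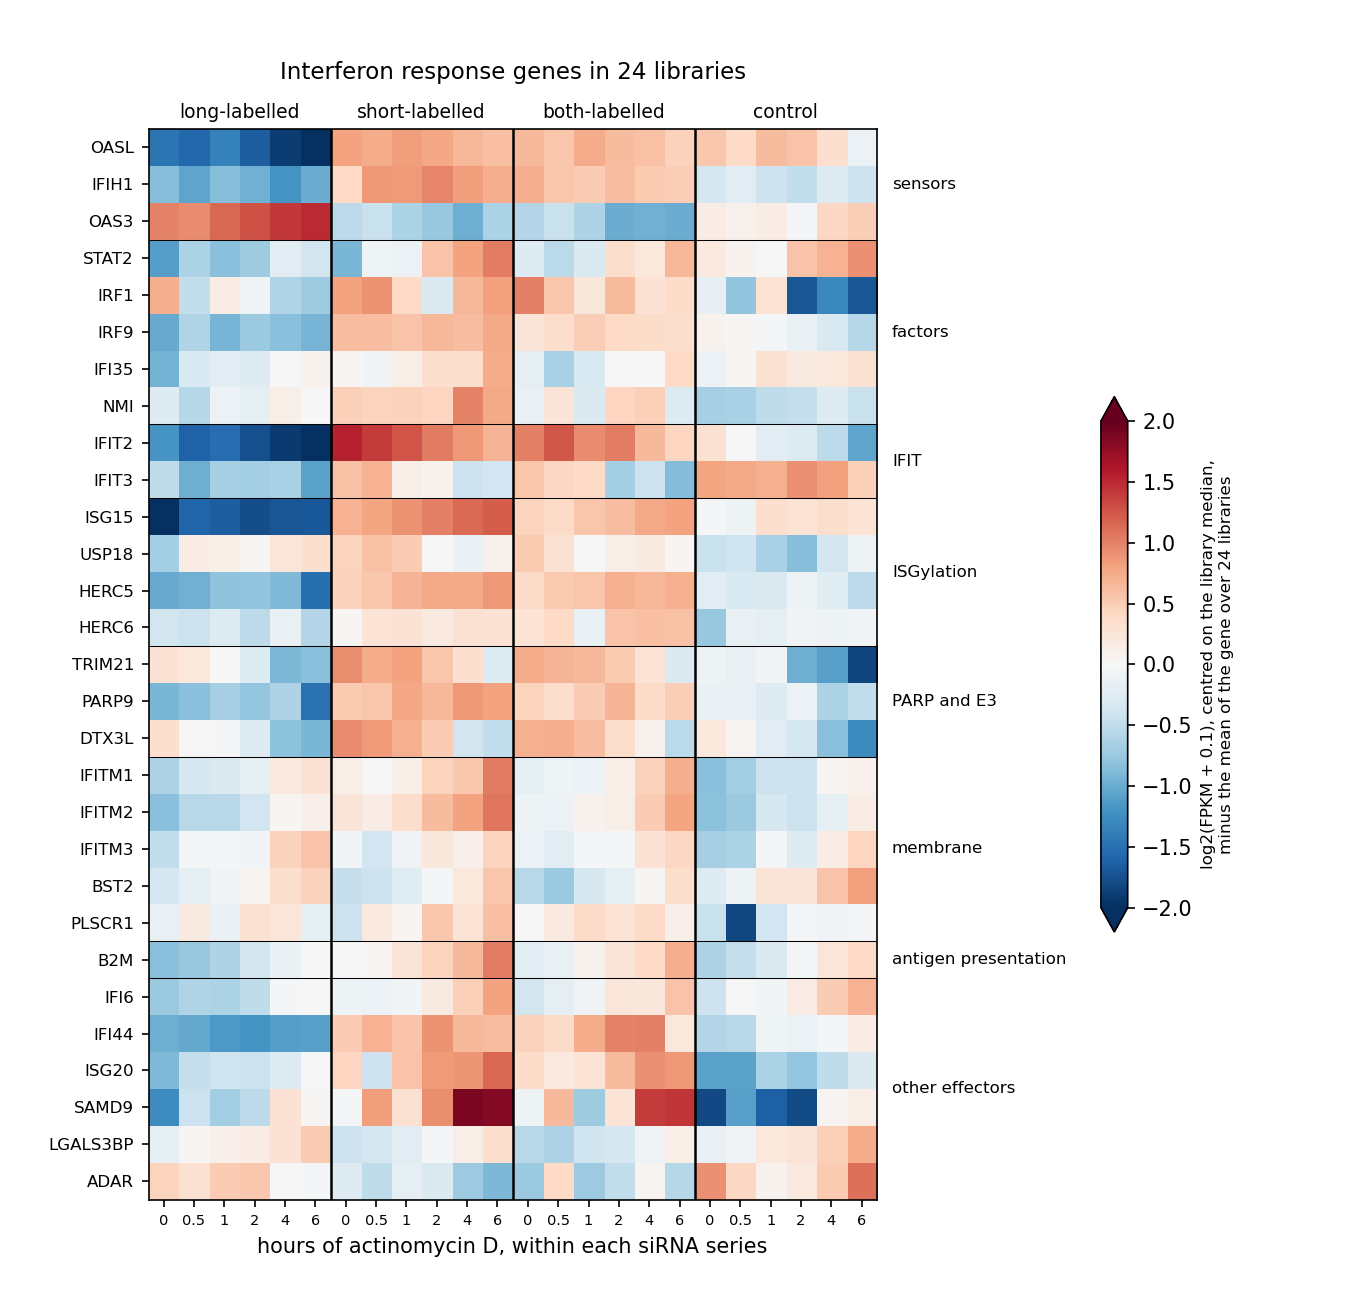
Level of the 29 tested members in all 24 libraries, as log2(FPKM + 0.1) centred on the library median, minus the mean of the gene over the libraries; rows are grouped by role, columns run over 0 to 6 h of actinomycin D within each series, and the colours saturate 2 log2 units to either side of 0. OASL, IFIT2, ISG15, HERC5 and IFI44 are blue in all 6 long-labelled libraries, while OAS3 is red there.

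Among the sensors of foreign RNA, OASL and IFIH1 were low and OAS3 was high in the long-labelled series. OASL, a relative of the oligoadenylate synthetases that enhances signalling by the DDX58 product, had 14.3, 13.3, 14.7, 11.6, 8.99 and 6.10 FPKM at 0, 0.5, 1, 2, 4 and 6 h in the long-labelled series. At the same times it had 67.0, 63.8, 65.999, 60.5, 53.8 and 48.1 FPKM in the short-labelled series and 61.0, 56.3, 61.5, 55.0, 51.5 and 45.2 in the both-labelled series. The control libraries had 60.7, 55.0, 60.3, 55.9, 44.0 and 30.8 FPKM. The long-labelled values lay below every control value, and the short-labelled and both-labelled values overlapped the control. The level difference from control was -2.12 ± 0.09 log2 units (SE) in the long-labelled series (adjusted p = 1.24e-12), 0.34 ± 0.09 in the short-labelled series (adjusted p = 0.00244) and 0.21 ± 0.09 in the both-labelled series (adjusted p = 0.046). The last of these calls was lost in 18 of the 30 fits that left out a time or a library, with a difference of 0.11 to 0.24 over all 45 alternatives.

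IFIH1, which encodes MDA5, the sensor of long double-stranded RNA, had 0.816 to 1.27 FPKM in the long-labelled series (median 1.075). It had 3.04 to 4.22 FPKM (median 3.87) in the short-labelled series, 2.76 to 3.90 (median 3.21) in the both-labelled series and 1.45 to 2.10 (median 1.71) in the control. No series overlapped the control: the long-labelled libraries were all lower, and those of the short-labelled and both-labelled series all higher. IFIH1 differed from control by -0.62 ± 0.10 log2 units in the long-labelled series (adjusted p = 5.88e-05), by 1.13 ± 0.10 in the short-labelled series (adjusted p = 2.82e-08) and by 0.93 ± 0.10 in the both-labelled series (adjusted p = 4.02e-07).

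OAS3 makes the oligoadenylates that activate RNase L. It had 9.50, 9.21, 10.04, 10.6, 10.9 and 11.3 FPKM over the 6 times in the long-labelled series, and 3.16, 3.31, 2.80, 2.45, 2.00 and 2.38 FPKM in the short-labelled series. The both-labelled libraries had 3.05, 3.32, 2.81, 2.08, 2.04 and 1.91 FPKM, and the control libraries 5.49, 5.25, 5.12, 4.37, 5.55 and 5.60. Every long-labelled library was above the control range and every short-labelled and both-labelled library below it, the reverse of OASL and IFIH1. The level difference from control was 1.00 ± 0.14 in the long-labelled series (adjusted p = 6.82e-06), -0.87 ± 0.14 in the short-labelled series (adjusted p = 2.29e-05) and -0.97 ± 0.14 in the both-labelled series (adjusted p = 6.55e-06).

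The other sensors gave less certain values. DDX58, which encodes RIG-I, had 0.460 to 1.39 FPKM in the long-labelled series and 1.33 to 5.39 in the short-labelled series. It had 0 to 4.81 FPKM in the both-labelled series and 1.66 to 3.80 in the control, so every long-labelled value lay below the control range. The both-labelled value of 0 stood at 6 h, after 1.41 FPKM at 4 h, and DDX58 was left out of the main fit for it. With such zeros kept, its level difference was -1.55 ± 0.53 log2 units in the long-labelled series (adjusted p = 0.0253). OAS1, like OAS3 an oligoadenylate synthetase, had 4.34 to 17.6 FPKM in the long-labelled series, 9.54 to 24.5 in the short-labelled series, 9.21 to 19.9 in the both-labelled series and 3.39 to 7.46 in the control. A dash stood for 1 of its transcripts in a long-labelled library. The sum of that library lacks this transcript but is included in the long-labelled range. OAS1 was therefore tested only in an added fit that kept dashes as missing. There the differences were 0.82 ± 0.30 in the long-labelled series, 1.34 ± 0.28 in the short-labelled series and 1.60 ± 0.28 in the both-labelled series (adjusted p = 0.0304, 0.00052 and 0.000101). EIF2AK2, the kinase PKR that halts translation, had 0 in some long-labelled and control libraries between values over 3 FPKM and gets no fold, and OAS2 had at most 0.165 FPKM in any library.

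The transcription factors of the response did not move as a block. IRF9, the DNA-binding partner of the STATs, had 3.10 to 4.74 FPKM (median 3.54) in the long-labelled series and 9.49 to 10.7 FPKM (median 10.1) in the short-labelled series. It had 7.44 to 9.45 FPKM (median 8.50) in the both-labelled series and 4.05 to 8.02 (median 6.58) in the control. Most long-labelled libraries lay below the control range and all short-labelled libraries above it; after centring on the library medians, no long-labelled, short-labelled or both-labelled value overlapped the control. IRF9 differed from control by -0.69 ± 0.09 log2 units in the long-labelled series (adjusted p = 8.25e-06), by 0.79 ± 0.09 in the short-labelled series (adjusted p = 8.98e-07) and by 0.52 ± 0.09 in the both-labelled series (adjusted p = 0.000115).

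STAT2, the partner that carries the activation domain, was lower in the long-labelled series. It had 3.90 to 6.16 FPKM (median 5.08) there and 4.28 to 13.7 (median 9.44) in the short-labelled series. The both-labelled libraries had 5.59 to 11.2 FPKM (median 7.72) and the control libraries 8.28 to 13.4 (median 11.1). The long-labelled values did not reach the control range, and those of the other series overlapped it. The difference was -1.05 ± 0.15 in the long-labelled series (adjusted p = 1.33e-05), -0.19 ± 0.15 in the short-labelled series (adjusted p = 0.272) and -0.38 ± 0.15 in the both-labelled series (adjusted p = 0.0358). The short-labelled series had 4.28 FPKM at 0 h and 13.7 at 6 h, against 10.2 and 13.4 in the control. Its average thus covers a lower value at 0 h that was gone by 6 h, although its slope was not called different from control. The both-labelled call was lost in 10 of 30 fits that left out a time or a library, with adjusted p up to 0.279 over its alternatives.

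IRF1, a factor induced early by interferon gamma, had 0.718 to 2.56 FPKM (median 1.17) in the long-labelled series. It had 1.08 to 2.78 FPKM (median 2.13) in the short-labelled series, 1.58 to 3.08 (median 1.88) in the both-labelled series and 0.313 to 1.79 (median 0.674) in the control. All 3 series overlapped the control, and the control values at 2, 4 and 6 h were the lowest of the 24 libraries. IRF1 differed by 0.73 ± 0.27 log2 units in the long-labelled series (adjusted p = 0.0303), by 1.45 ± 0.27 in the short-labelled series (adjusted p = 0.000137) and by 1.41 ± 0.27 in the both-labelled series (adjusted p = 0.000192). The long-labelled call was lost in 10 of 30 fits that left out a time or a library. NMI differed by 0.33 ± 0.12 in the long-labelled series, a call lost in 7 of 30 fits that left out a time or a library, by 1.09 ± 0.12 in the short-labelled series and by 0.57 ± 0.12 in the both-labelled series. IFI35, its binding partner, differed by -0.43 ± 0.11, 0.11 ± 0.11 and -0.28 ± 0.11 in the same order, where the second was not called (adjusted p = 0.399) and the third was lost in 10 of 30 such fits. IRF7, which amplifies the response, had at most 0.147 FPKM.

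The IFIT proteins bind viral RNA and hold it back from translation. IFIT2 had 3.50, 2.57, 2.61, 2.12, 1.73 and 1.29 FPKM over the course in the long-labelled series and 22.6, 20.6, 18.0, 14.9, 12.6 and 10.3 in the short-labelled series. The both-labelled libraries had 15.9, 18.4, 14.3, 14.7, 10.9 and 8.92 FPKM, and the control libraries 10.5, 8.31, 6.67, 6.33, 4.90 and 3.19. At each time the long-labelled library was the lowest and the short-labelled library the highest. The level difference from control was -1.41 ± 0.08 in the long-labelled series (adjusted p = 1.77e-10), 1.43 ± 0.08 in the short-labelled series (adjusted p = 7.95e-11) and 1.17 ± 0.08 in the both-labelled series (adjusted p = 1.3e-09).

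IFIT3, which binds and stabilises IFIT1, was lower than control in all 3 series. It had 4.85, 3.50, 4.11, 3.93, 3.70 and 2.71 FPKM over the course in the long-labelled series, and 10.1, 10.9, 7.01, 6.49, 4.38 and 4.19 in the short-labelled series. The both-labelled libraries had 10.1, 8.94, 8.46, 3.83, 4.38 and 3.10 FPKM, and the control libraries 12.6, 12.3, 11.1, 12.5, 10.8 and 8.11. The short-labelled and both-labelled libraries stood near the control at 0 h and near the long-labelled libraries at 4 h. The level difference was -1.50 ± 0.18 in the long-labelled series (adjusted p = 2.14e-06), -0.63 ± 0.18 in the short-labelled series (adjusted p = 0.0062) and -0.84 ± 0.18 in the both-labelled series (adjusted p = 0.000654).

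IFIT1, the member of this family that recognises RNA lacking a methylated cap, had 2.97, 3.21, 2.47, 2.33 and 1.32 FPKM in the long-labelled series at 0, 0.5, 1, 2 and 6 h and a dash at 4 h. It had 13.8 to 21.8 FPKM in the short-labelled series, 7.84 to 16.5 in the both-labelled series and 7.64 to 14.5 in the control. Every long-labelled value lay under the lowest control value, while the both-labelled libraries overlapped the control. In the added fit with the dash as missing, IFIT1 differed by -2.26 ± 0.09 in the long-labelled series (adjusted p = 2.93e-12), by 0.77 ± 0.09 in the short-labelled series (adjusted p = 6.56e-07) and by 0.15 ± 0.09 in the both-labelled series (adjusted p = 0.129). IFIT5 had at most 0.656 FPKM.

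**Figure D3:**
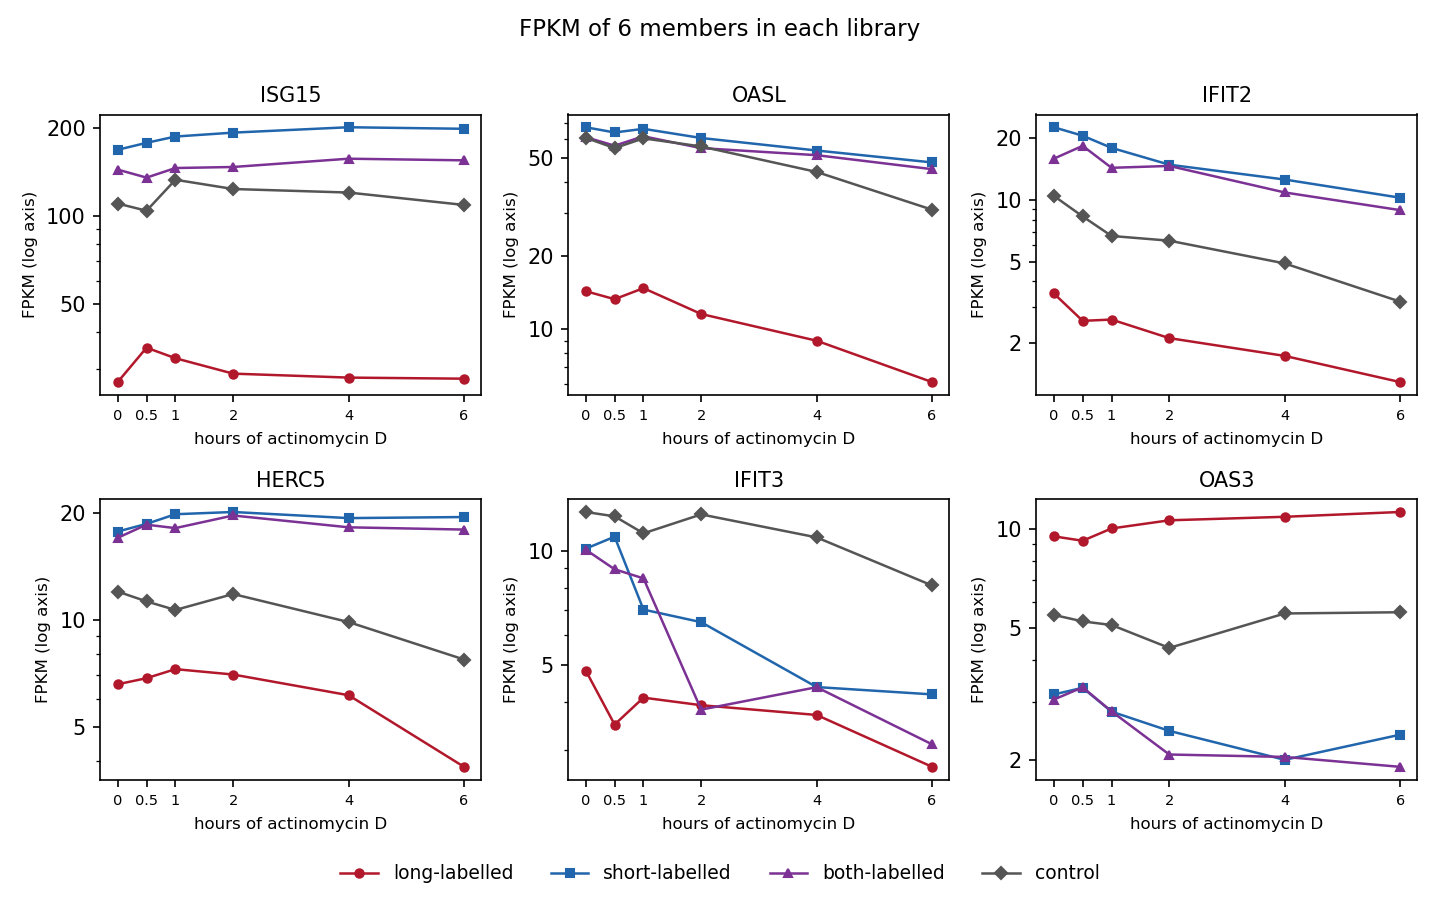
FPKM on a log axis of 6 members against hours of actinomycin D, with 1 point for each library and 1 line for each series. For ISG15, OASL, IFIT2 and HERC5 the long-labelled line lies below the control at all times; for OAS3 the long-labelled line lies above it, and for IFIT3 the control line is the highest.

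In the ISG15 conjugation system the modifier and its main ligase were lower than control in the long-labelled series and higher in the other 2, and the protease was higher in all 3. ISG15, the ubiquitin-like modifier, had 27.0, 35.4, 32.6, 28.9, 28.0 and 27.7 FPKM over the course in the long-labelled series and 168.5, 178.0, 187.0, 192.9, 201.2 and 198.8 FPKM in the short-labelled series. The both-labelled libraries had 144.1, 135.3, 145.9, 147.1, 157.0 and 155.0 FPKM, and the control libraries 110.3, 104.2, 133.0, 123.7, 120.3 and 109.1. None of the 4 FPKM ranges overlapped another, while after centring on the library medians the short-labelled and both-labelled ranges did. ISG15 differed from control by -1.92 ± 0.07 log2 units in the long-labelled series (adjusted p = 1.07e-13), by 0.77 ± 0.07 in the short-labelled series (adjusted p = 1.15e-08) and by 0.41 ± 0.07 in the both-labelled series (adjusted p = 2.84e-05).

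HERC5, the ligase that attaches ISG15, had 6.59, 6.85, 7.27, 7.02, 6.14 and 3.85 FPKM in the long-labelled series and 17.8, 18.7, 19.9, 20.2, 19.4 and 19.5 in the short-labelled series. The both-labelled libraries had 17.1, 18.6, 18.2, 19.7, 18.3 and 18.0 FPKM, and the control libraries 12.0, 11.3, 10.7, 11.8, 9.87 and 7.74. The long-labelled range lay below the control and the other 2 ranges above it. HERC5 differed by -0.71 ± 0.10 in the long-labelled series (adjusted p = 1.05e-05), by 0.96 ± 0.10 in the short-labelled series (adjusted p = 1.71e-07) and by 0.87 ± 0.10 in the both-labelled series (adjusted p = 6.08e-07). USP18, the protease that removes ISG15 and dampens receptor signalling, was higher than control in all 3 series, by 0.50 ± 0.17, 0.72 ± 0.17 and 0.66 ± 0.17 log2 units in the long-, short- and both-labelled series. The long-labelled call of USP18 was lost in 9 of 30 fits that left out a time or a library. HERC6, which acts as the ISG15 ligase in mouse, differed by -0.18 ± 0.13 in the long-labelled series (adjusted p = 0.262) and was higher by 0.44 ± 0.13 in the short-labelled series and by 0.59 ± 0.13 in the both-labelled series. UBE2L6, the conjugating enzyme of the system, had at most 0.083 FPKM in any library.

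PARP9 and DTX3L, whose proteins form a complex, and the ubiquitin ligase TRIM21, an intracellular antibody receptor, were each higher than control in the short-labelled and both-labelled series. PARP9 had 1.74 to 3.62 FPKM in the long-labelled series, 8.52 to 9.84 in the short-labelled series, 6.85 to 8.81 in the both-labelled series and 3.43 to 5.89 in the control. Its differences were -0.59 ± 0.13, 0.99 ± 0.13 and 0.77 ± 0.13 log2 units in the long-, short- and both-labelled series (adjusted p = 0.000765, 1.91e-06 and 3.97e-05). They were called when its transcripts were summed and not when its most abundant transcript was taken alone, with differences of -1.40, 1.88 and 1.57 but an SE of 0.95 (adjusted p = 0.242, 0.097 and 0.167). TRIM21 had 3.37 to 9.15 FPKM (median 6.41) in the long-labelled series, 4.89 to 13.9 (median 10.95) in the short-labelled series, 5.02 to 12.4 (median 10.3) in the both-labelled series and 1.69 to 7.33 (median 5.28) in the control. These ranges overlap because TRIM21 fell steeply over the 6 h in every series, and at each time the short-labelled library was above the control library. TRIM21 was higher by 0.45 ± 0.12 in the long-labelled series (adjusted p = 0.00408), by 1.22 ± 0.12 in the short-labelled series (adjusted p = 7.35e-08) and by 1.13 ± 0.12 in the both-labelled series (adjusted p = 2.01e-07). PARP14 had at most 0.0107 FPKM.

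The membrane proteins that block virus entry were among the most abundant members, and none of them fell in the long-labelled series. IFITM2 had 126 to 202 FPKM (median 155) in the long-labelled series and 238 to 373 (median 287) in the short-labelled series. It had 198 to 320 FPKM (median 219) in the both-labelled series and 133 to 208 (median 165) in the control. In FPKM the short-labelled libraries lay above the whole control range, and the long-labelled libraries spanned nearly the control range. After centring on the library medians, the lowest short-labelled value lay just under the highest control value. IFITM2 differed by 0.03 ± 0.06 log2 units in the long-labelled series (adjusted p = 0.658), by 0.94 ± 0.06 in the short-labelled series (adjusted p = 9.2e-11) and by 0.61 ± 0.06 in the both-labelled series (adjusted p = 3.57e-08).

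IFITM1 had 57.2 to 90.0 FPKM in the long-labelled series, 85.0 to 143 in the short-labelled series, 74.9 to 120 in the both-labelled series and 51.4 to 79.0 in the control. It was higher by 0.22 ± 0.06 in the long-labelled series (adjusted p = 0.00526), by 0.76 ± 0.06 in the short-labelled series (adjusted p = 4.94e-09) and by 0.53 ± 0.06 in the both-labelled series (adjusted p = 5.21e-07). IFITM3 had 475 to 831 FPKM in the long-labelled series, 492 to 722 in the short-labelled series, 555 to 737 in the both-labelled series and 442 to 754 in the control. The 4 ranges of IFITM3 overlap throughout. Its differences were 0.24 ± 0.10, 0.21 ± 0.10 and 0.22 ± 0.10 log2 units in the long-, short- and both-labelled series (adjusted p = 0.0448, 0.0606 and 0.051), and the long-labelled call was lost in 17 of 30 fits that left out a time or a library.

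BST2, or tetherin, which holds budding virions at the cell surface, was lower than control in all 3 series. It had 309 to 446 FPKM (median 363) in the long-labelled series, 273 to 457 (median 323) in the short-labelled series, 225 to 412 (median 297) in the both-labelled series and 343 to 577 (median 447) in the control. The ranges overlap, since BST2 rose over the course in every series. BST2 differed by -0.22 ± 0.05 in the long-labelled series (adjusted p = 0.00106), by -0.32 ± 0.05 in the short-labelled series (adjusted p = 1.41e-05) and by -0.49 ± 0.05 in the both-labelled series (adjusted p = 8.05e-08). PLSCR1 had 2.89 to 13.0 FPKM over the 24 libraries, and was higher than control by 0.66 ± 0.21 in the short-labelled series and by 0.68 ± 0.21 in the both-labelled series. The value of 2.89 was the control library at 0.5 h, and the other control libraries had 7.46 to 9.35 FPKM. That time gave the largest centred differences from control, 2.002 in the short-labelled and 2.003 in the both-labelled series.

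In antigen presentation, only B2M gave values. B2M, the light chain of MHC class I, had 788 to 1174 FPKM (median 938) in the long-labelled series and 1346 to 2286 (median 1632) in the short-labelled series. It had 1193 to 1930 FPKM (median 1441) in the both-labelled series and 966 to 1554 (median 1211) in the control. The ranges overlap because B2M rose over the course, while at each time the order was short-labelled, both-labelled, control and long-labelled, high to low. B2M differed from control by -0.32 ± 0.03 log2 units in the long-labelled series (adjusted p = 3.38e-07), by 0.53 ± 0.03 in the short-labelled series (adjusted p = 2.54e-10) and by 0.32 ± 0.03 in the both-labelled series (adjusted p = 2.73e-07). The MHC class I heavy chains HLA-B, HLA-C and HLA-E and the peptide transporter TAP1 were listed at 0 in all 24 libraries. So were HLA-F, PSMB8, PSMB9, TAP2 and TAPBP, which are not members, so these zeros are not read as a level.

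Other effectors fell into those that were lower in the long-labelled series and those that were not. IFI44 had 7.96 to 10.3 FPKM (median 8.43) in the long-labelled series, 24.9 to 34.1 (median 28.1) in the short-labelled series, 19.4 to 36.6 (median 29.6) in the both-labelled series and 14.2 to 19.03 (median 17.8) in the control. No series overlapped the control. The differences were -0.88 ± 0.13, 0.86 ± 0.13 and 0.84 ± 0.13 log2 units in the long-, short- and both-labelled series (adjusted p = 1.8e-05, 1.57e-05 and 2.26e-05). IFI6 had 13.9 to 19.8 FPKM (median 15.4) in the long-labelled series, 20.9 to 32.7 (median 22.5) in the short-labelled series, 17.9 to 29.003 (median 22.2) in the both-labelled series and 18.4 to 32.0 (median 24.7) in the control. IFI6 was lower by -0.56 ± 0.06 in the long-labelled series (adjusted p = 5.59e-07); it differed by 0.05 ± 0.06 in the short-labelled series (adjusted p = 0.479) and by -0.08 ± 0.06 in the both-labelled series (adjusted p = 0.285).

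ISG20, an RNA exonuclease, and SAMD9, which restricts poxviruses, were higher in the short-labelled and both-labelled series. ISG20 had 47.0 to 72.2 FPKM (median 62.1) in the long-labelled series, 62.5 to 153 (median 128) in the short-labelled series, 95.4 to 141 (median 115) in the both-labelled series and 42.8 to 59.5 (median 50.8) in the control. ISG20 differed by 0.32 ± 0.12, 1.305 ± 0.12 and 1.27 ± 0.12 log2 units in the long-, short- and both-labelled series (adjusted p = 0.0344, 4.23e-08 and 6.43e-08), and the first of these calls was lost in 11 of 30 fits that left out a time or a library. SAMD9 had 0.453 to 1.28 FPKM (median 0.813) in the long-labelled series, 1.14 to 4.10 (median 2.17) in the short-labelled series, 0.648 to 2.92 (median 1.63) in the both-labelled series and 0.266 to 1.12 (median 0.432) in the control. In FPKM every short-labelled library was above the highest control value of SAMD9, at 0 h only just, and the other 2 series overlapped the control. After centring on the library medians the short-labelled series overlapped the control too. SAMD9 differed by 0.59 ± 0.17 in the long-labelled series (adjusted p = 0.00734), by 1.98 ± 0.17 in the short-labelled series (adjusted p = 1.33e-08) and by 1.51 ± 0.17 in the both-labelled series (adjusted p = 4.61e-07). SAMD9 passed the filter of 1 FPKM only through the short-labelled and both-labelled series, with averages of 2.45 and 1.80 FPKM. The long-labelled series averaged 0.844 FPKM and the control 0.609. The filter thus favoured its calls as higher in the short-labelled and both-labelled series, also within the counts above.

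ADAR, which edits adenosine in double-stranded RNA, and LGALS3BP, a secreted glycoprotein that binds galectin, went the other way in these 2 series. ADAR had 16.3 to 31.1 FPKM (median 26.8) in the short-labelled series, 21.2 to 48.5 (median 23.4) in the both-labelled series and 39.4 to 75.6 (median 50.6) in the control. ADAR was lower by -1.01 ± 0.22 log2 units in the short-labelled series (adjusted p = 0.000583) and by -0.88 ± 0.22 in the both-labelled series (adjusted p = 0.00201). LGALS3BP had 295 to 399 FPKM (median 343) in the long-labelled series, 243 to 339 (median 280) in the short-labelled series, 212 to 306 (median 237) in the both-labelled series and 320 to 472 (median 379) in the control. LGALS3BP was lower by -0.33 ± 0.04 in the short-labelled series (adjusted p = 6.11e-07) and by -0.55 ± 0.04 in the both-labelled series (adjusted p = 1.01e-09). Its difference of -0.10 ± 0.04 in the long-labelled series (adjusted p = 0.0381) was lost in 12 of 30 fits that left out a time or a library.

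Several classical members were nearly silent. The antiviral GTPase MX1 had at most 0.0311 FPKM in the long-labelled series, 0.0332 in the short-labelled series, 0.0111 in the both-labelled series and 0.0324 in the control, with 6 of 24 libraries at 0. RSAD2, or viperin, had at most 0.306 FPKM, and IFI44L, MX2, XAF1 and CMPK2 had less. IFI27 had at most 0.545 FPKM, with no difference called when the filter on low values was lowered to 0.1 FPKM. The guanylate-binding GTPase GBP2 had 0.060 to 0.1235 FPKM in the long-labelled series, 0.467 to 0.711 in the short-labelled series, 0.340 to 0.511 in the both-labelled series and 0.736 to 1.35 in the control. None of its 3 ranges reached the control. At that lower filter, GBP2 differed by -2.505 ± 0.14 in the long-labelled series, by -0.67 ± 0.14 in the short-labelled series and by -1.07 ± 0.14 in the both-labelled series (adjusted p = 1.05e-10, 0.000576 and 3.89e-06). At the same filter and in the long-labelled series, GBP1 (-0.725 ± 0.095), TRIM22 (-1.04 ± 0.32) and IFIT5 (-0.405 ± 0.13) were lower than control and SP110 (1.64 ± 0.21) was higher. GBP1 was also lower in the both-labelled series (-0.604 ± 0.095), where TRIM22 and IFIT5 were not called. In the short-labelled series GBP1, TRIM22 and IFIT5 were not called. SP110 had 0.654 to 1.12 FPKM in the long-labelled series, 0.321 to 1.00 in the short-labelled series, 0.436 to 0.854 in the both-labelled series and 0.127 to 0.388 in the control, and it was higher in all 3 series.

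**Figure D4:**
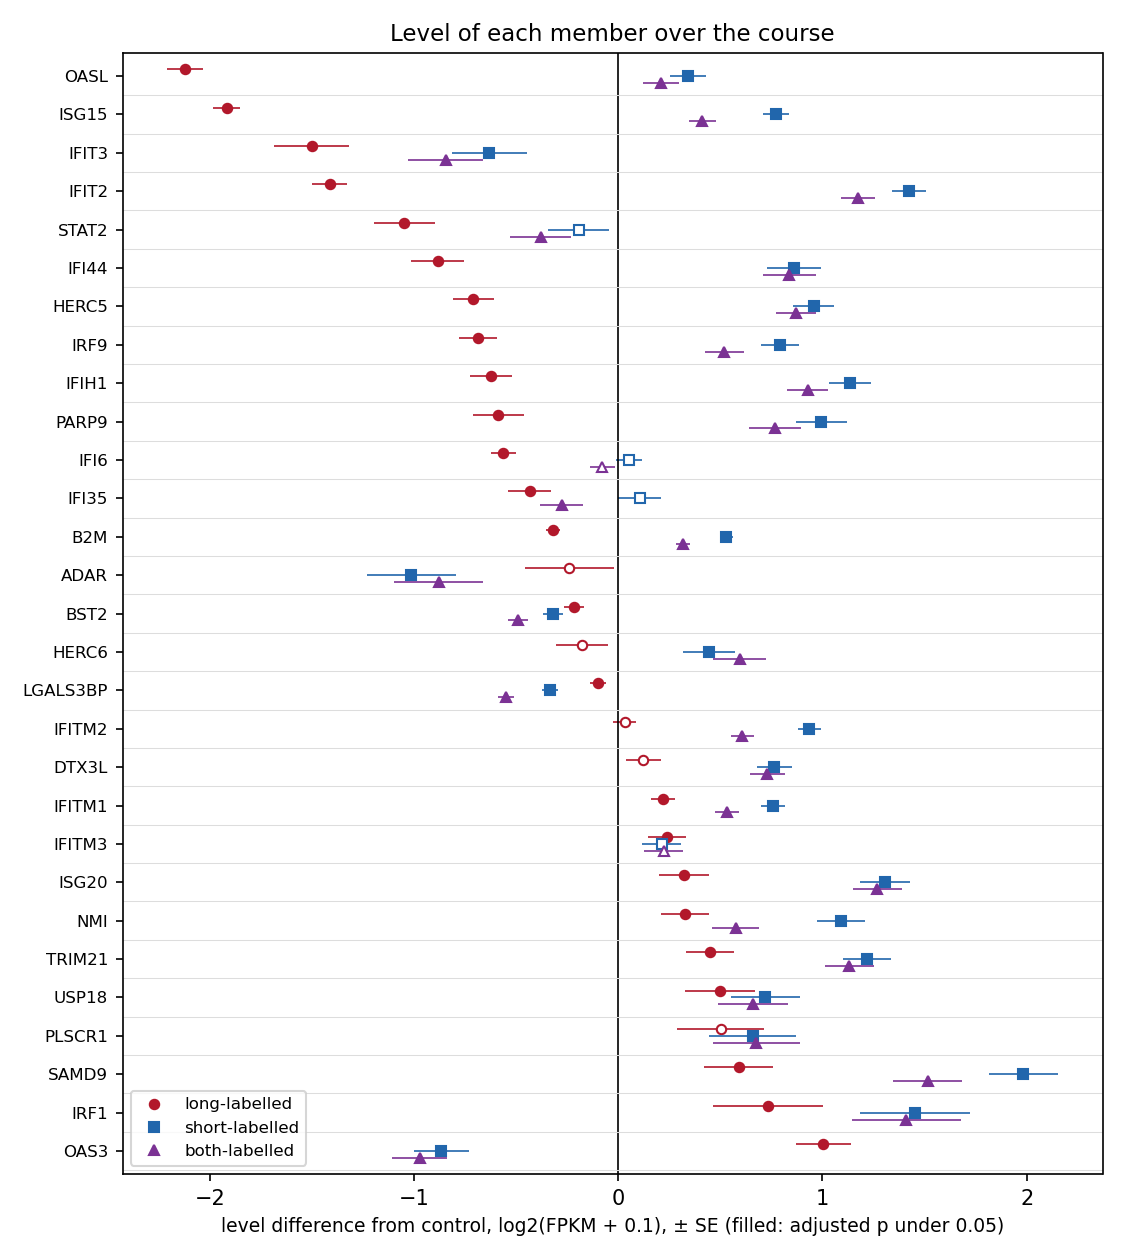
Level difference from control of the 29 tested members in log2(FPKM + 0.1) units, with SE, for the long-labelled (red circles), short-labelled (blue squares) and both-labelled (purple triangles) series; filled symbols mark an adjusted p under 0.05. Members run by their difference in the long-labelled series, with OASL at -2.12 at the top and OAS3 at 1.00 at the bottom.

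The short-labelled series was also compared with the long-labelled series, a contrast that does not use the control as its reference. All 24 libraries were fitted, so the control libraries still enter the estimate of the spread. Of 29 members, 22 were higher and 3 lower, against 31.7% and 32.3% of all tested genes. By at least 1 log2 unit, 9 were higher and 1 was lower, against 8.55% and 9.49% of all genes. The largest differences were those of IFIT2 (2.84 ± 0.08, adjusted p = 8.03e-15), ISG15 (2.69 ± 0.07, adjusted p = 5.84e-16) and OASL (2.46 ± 0.09, adjusted p = 8.75e-14), and IFIT1 reached 3.03 ± 0.09 in the added fit. The median over the 29 members was 0.77, against -0.01 for all genes. IFIH1, IFI44 and HERC5 followed with 1.76 ± 0.10, 1.74 ± 0.13 and 1.67 ± 0.10 log2 units. OAS3 (-1.87 ± 0.14), ADAR (-0.77 ± 0.22) and LGALS3BP (-0.23 ± 0.04) were the 3 that were lower. IRF1, higher by 0.72 ± 0.27 (adjusted p = 0.0268), lost its call in 9 of 30 fits that left out a time or a library.

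Ordered by their centred mean level, 9 members ran long-labelled, control, both-labelled and short-labelled, low to high: ISG15, OASL, IFIT2, IFIH1, IRF9, IFI44, HERC5, B2M and PARP9. That order held for 10.2% of all tested genes. The long-labelled series was the lowest for 14 of 29 members (26.8% of all genes) and the short-labelled series the highest for 20 (25.2%). The neighbours at the top of this order differ little for some members: OASL averaged 59.9 ± 7.46 FPKM in the short-labelled and 55.1 ± 6.16 FPKM in the both-labelled libraries (SD over 6 times).

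For several members, differences from control were present at 0 h, before actinomycin D acted. At 0 h, log2(FPKM + 0.1) of the long-labelled minus the control library, here not centred, was -2.25 for IFIT1, -2.07 for OASL, -2.03 for ISG15, -1.55 for IFIT2 and -0.86 for HERC5. In the short-labelled series the same quantity was 0.56 for IFIT1, 0.14 for OASL, 0.61 for ISG15, 1.11 for IFIT2 and 0.56 for HERC5. These are single libraries and carry no test. OAS3 stood at 0.78 in the long-labelled, -0.78 in the short-labelled and -0.83 in the both-labelled series at 0 h. In the both-labelled series the 0 h value was 0.19 for IFIT1, 0.01 for OASL, 0.39 for ISG15, 0.60 for IFIT2 and 0.50 for HERC5. USP18 stood on the other side of the control from its level over the course, at -0.31 in the long-labelled series. PLSCR1 was at -0.10 in the short-labelled series on this scale. After centring on the library medians, PLSCR1 was above the control at all 6 times there, with a lowest difference of 0.018. STAT2 stood at -1.23 in the short-labelled series, where its level over the course was not called different.

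The course in actinomycin D shows how each RNA fell or rose relative to the library median. The library median itself fell over the course: on the log2 scale it was 3.65 at 0 h and 3.39 at 6 h in the long-labelled series, and 3.725 at 0 h and 3.40 at 6 h in the control. A positive slope means a slower fall than that median, or a rise in FPKM. The median slope over all tested genes was not 0 but 0.037 log2 units per h in the long-labelled, 0.038 in the short-labelled, 0.035 in the both-labelled and 0.044 in the control series, and over the members it was 0.017, 0.059, 0.006 and 0.068 in the same order. Of 29 members, 9 had a positive called slope and 5 a negative one in the long-labelled series, where 26.1% and 13.4% of all genes did. In the short-labelled series 12 and 4 did (28% and 16.3% of all genes), in the both-labelled series 12 and 5 (26.3% and 14.6%), and in the control 11 and 6 (30.1% and 16.7%).

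DTX3L, TRIM21 and IFIT2 had negative called slopes in all 4 series. DTX3L left 34.3% of its 0 h FPKM at 6 h in the long-labelled series, 29.7% in the short-labelled series, 34.5% in the both-labelled series and 27.5% in the control. TRIM21 left 37.4%, 35.2% and 40.6% in the long-, short- and both-labelled series and 23.0% in the control. IFIT2 left 36.9%, 45.3% and 56.1% in the same 3 series and 30.5% in the control. The median tested gene left 96.7% of its FPKM in the long-labelled series and 95.0% in the control.

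B2M, BST2, IFI6, IFITM1, IFITM2, IFITM3 and LGALS3BP had positive called slopes in all 4 series. B2M stood at 148.9% of its 0 h FPKM at 6 h in the long-labelled series, 169.8% in the short-labelled series, 161.8% in the both-labelled series and 160.9% in the control. IFITM1 stood at 157.4%, 154.2% and 157.9% in the long-, short- and both-labelled series and at 152.4% in the control. FPKM are relative to the other RNA of the library, so a value over 100% is a level relative to that RNA. Of the calls of these 10 members, those of TRIM21, IFIT2 and IFITM3 in the both-labelled series and of TRIM21 and IFITM3 in the short-labelled series were lost in some fits that left out a time or a library, and most were lost over 0 to 2 h alone. Under quantile normalisation LGALS3BP lost its call in all 4 series, and B2M in the short-labelled series and the control. The calls of BST2 in the long-labelled, IFITM2 in the short-labelled and IFITM3 in the short-labelled and both-labelled series were lost there too. Under quantile normalisation the slopes of IFITM3 in the short-labelled series and of LGALS3BP in the long-labelled series turned to -0.0245 ± 0.0201 and -0.0037 ± 0.0115 log2 units per h. ISG15 had called slopes of 0.082 ± 0.024 in the short-labelled series and 0.067 ± 0.024 in the both-labelled series, which turned negative under the same alternative (-0.0145 and -0.0156). SAMD9 stood at 226.7% of its 0 h FPKM in the long-labelled series, 321.1% in the short-labelled series, 255.2% in the both-labelled series and 376.9% in the control, with low FPKM at 0 h. Its slope was called in the short-labelled series (0.305 ± 0.087), the both-labelled series (0.286 ± 0.087) and the control (0.338 ± 0.087), and the control slope turned to -0.0992 over 0 to 2 h.

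**Figure D5:**
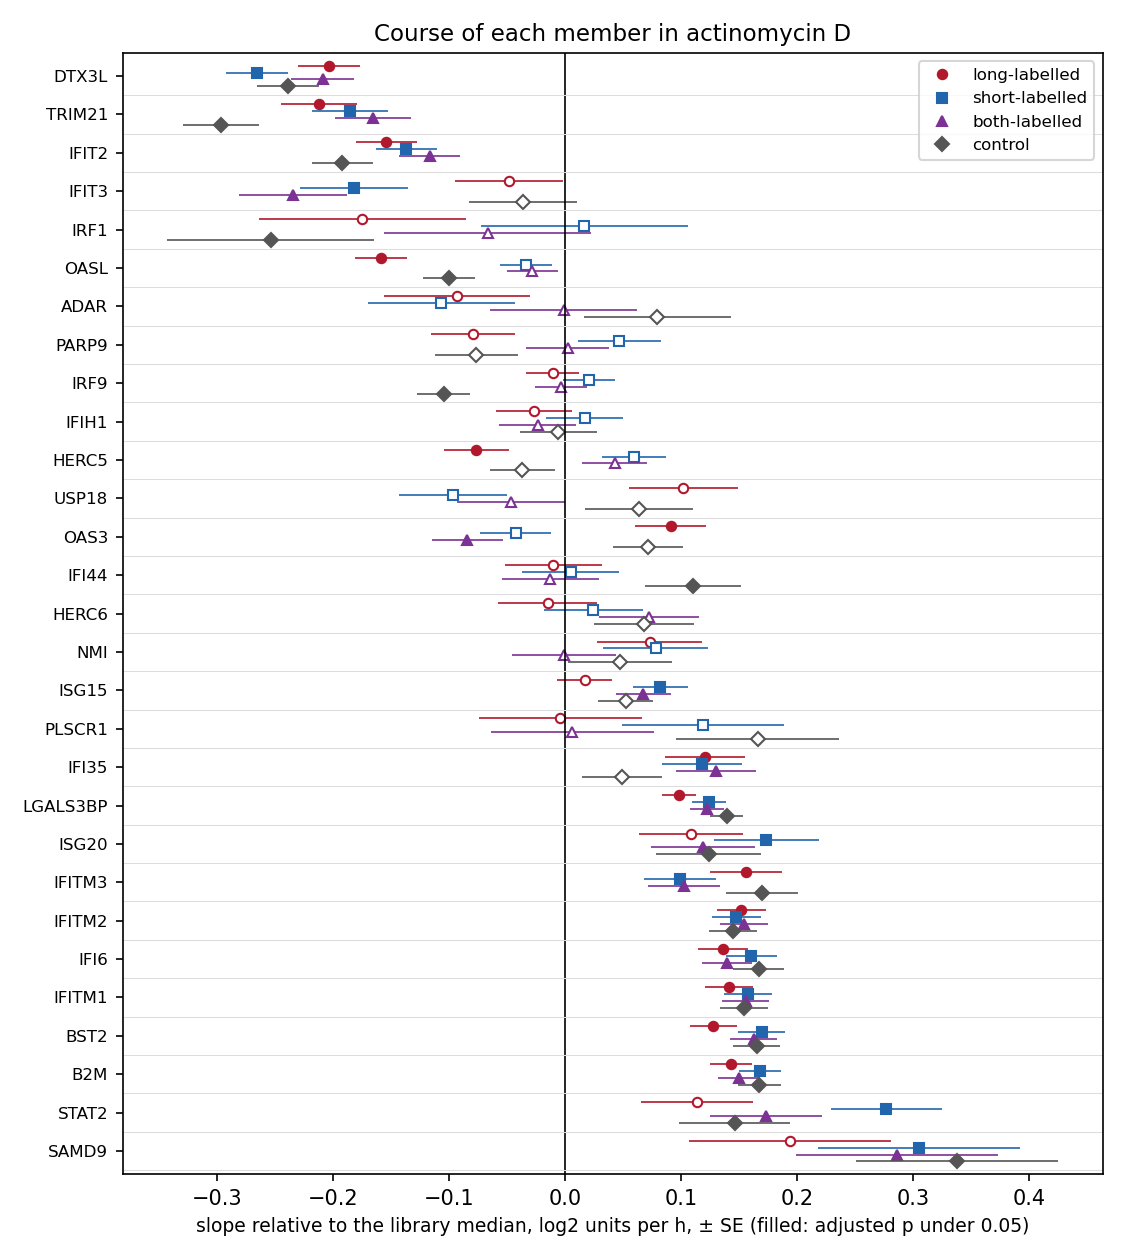
Slope of each tested member over 0 to 6 h relative to the library median, in log2 units per h with SE, in the long-labelled, short-labelled, both-labelled and control series; filled symbols mark an adjusted p under 0.05. DTX3L, TRIM21 and IFIT2 lie left of 0 in all 4 series, and 7 members, B2M and IFITM1 among them, lie right of 0 with filled symbols in all 4.

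Few slopes of members were called different between series, and a slope that was not called does not show an equal rate of loss. Of 29 slopes in the long-labelled series, 0 were called different from control in limma, against 1.83% of all genes. The short-labelled series had 3 members that differed, against 8.85% of all genes: IRF9 by 0.125 ± 0.031 log2 units per h (adjusted p = 0.0209), HERC5 by 0.096 ± 0.028 (adjusted p = 0.0492) and OASL by 0.066 ± 0.020 (adjusted p = 0.0492). In the both-labelled series OASL differed by 0.072 ± 0.020 (adjusted p = 0.0411) and OAS3 by -0.156 ± 0.041 (adjusted p = 0.035), against 7.05% of all genes. Between the short-labelled and the long-labelled series, OASL differed by 0.125 ± 0.020 (adjusted p = 0.00134) and HERC5 by 0.136 ± 0.028 (adjusted p = 0.0109), against 6.3% of all genes. These shares of called slopes are close to the background. At an unadjusted p under 0.05 in limma, 4 of 29 members differed from control in the long-labelled series. That count was 8 in the short-labelled series, 7 in the both-labelled series and 7 between the short-labelled and the long-labelled series.

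IRF9 left 88.1% of its 0 h FPKM at 6 h in the long-labelled series, 90.4% in the short-labelled series, 87.6% in the both-labelled series and 50.5% in the control. HERC5 left 58.5%, 109.9% and 105.5% in the long-, short- and both-labelled series and 64.3% in the control, and OASL left 42.5%, 71.8% and 74.0% in those 3 series and 50.8% in the control. None of the 7 slope calls held when a fit left out 6 h, and none held when only the libraries compared were fitted. Over 0 to 2 h the OASL difference turned to -0.0454 in the short-labelled series and -0.0302 in the both-labelled series.

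Other genes of the pathway, listed by role, are given for comparison. This list too was drawn up with earlier results of these data known, so it is not independent of them. Of 83 such genes 82 were in the table and 50 were tested. In the long-labelled series 11 were higher and 15 lower than control, where 27.1% and 24.1% of all genes were. The short-labelled series had 24 higher and 7 lower (32.7% and 30.7% of all genes), and the both-labelled series 22 higher and 6 lower (33% and 29%). The interferon ligands were near 0, and none of the 5 listed could be tested. In the long-labelled series TRAFD1 (-0.78 ± 0.04), the sensing adaptor TMEM173, also called STING (-1.22 ± 0.09), and the chemokine CCL5 (-1.19 ± 0.10) had the smallest adjusted p. The short-labelled series had SP100 (0.94), LAP3 (-0.77) and TDRD7 (1.70), and the both-labelled series TRAFD1 (-0.67), SP100 (0.81) and WARS (0.96). Between the short-labelled and the long-labelled series 24 were higher and 7 lower (31.7% and 32.3% of all genes), led by CCL5 (1.97), SP100 (1.03) and IL10RB (0.81). The median over the 50 genes was -0.09 in the long-labelled series, 0.33 in the short-labelled series and 0.30 in the both-labelled series, on the same log2 level scale.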

How the data were processed

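The authors deposited FPKM values per RefSeq transcript for 24 libraries of cytoplasmic RNA. The submitters' processing notes name TopHat 1.3.3 and the build hg19. The FPKM tool is not given in the sources used here. Transcripts were summed per gene; 154 of 37382 transcripts without a symbol (0.0141% of the FPKM) were left out. The filter, an average of 1 FPKM or more over the libraries, passed 9932 genes; 498 of these that held a dash and 1574 with a 0 next in time to at least 1 FPKM were left out, since such a 0 may be a failed estimate. That left 7860 genes. Levels and slopes were fitted with limma 3.58.1 in R 4.3.3 on log2(FPKM + 0.1), centred on library medians; a fold understates the change of low genes. Level fits held time as a factor and the series; slope fits added series by hours. The scripts were tested on simulated data. Members and gene lists were chosen with earlier results of these data known. Values by library are given for members with the smallest adjusted p, up to 8 per comparison, and for a fixed set of classical members; ADAR, IFI44, GBP2, PARP9, DTX3L and other members outside that rule are named to account for every member. Alternatives changed the pseudocount, filter, centring, normalisation, trend, libraries, zeros, times, transcripts and time model. The fits that kept dashes as missing, or zeros and dashes, were added after seeing the data. Libraries have no replicates at a time, so times within a series stand in for them.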

Additional observations from a re-analysis of the deposited data

Results flagged for a closer look

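Within series, 96 groups of 6 libraries were searched for a value far from the others, and 4 were found where chance gives about 1 in 20. DDX58 had 1.33 FPKM at 6 h in the short-labelled series, far under its other 5 libraries there. HERC5 had 3.85 FPKM at 6 h in the long-labelled series, the lowest of that series. MX1 had 0.03 FPKM at 6 h in the short-labelled series, above the other libraries, and 0.0 FPKM at 0 h in the both-labelled series, below the others, and both values lie near the bottom of the scale. Slopes over the 6 h differed between series by a test of the difference itself for 7 combinations of member and comparison. In the short-labelled series relative to control these were HERC5 (0.096 log2 units per h), IRF9 (0.125) and OASL (0.066). In the both-labelled series relative to control they were OAS3 (-0.156) and OASL (0.072). In the short-labelled relative to the long-labelled series they were HERC5 (0.136) and OASL (0.125).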

How the results depend on the processing

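Of 101 level calls, 91 were kept in every fit that left out a time or a library, 85 were kept under every other alternative, and 0 changed direction. Level counts ran over 18 to 24 members in the long-labelled, 25 to 26 in the short-labelled and 24 to 28 in the both-labelled series when a time or library was left out, and over 24 to 26 in the short-labelled against the long-labelled series. None of the 7 slope calls was kept throughout: leaving out a time or library gave 0 to 3 called slopes in the short-labelled series, 0 to 3 in the both-labelled series and 0 to 3 between the short-labelled and long-labelled series. In that order, 0, 0 and 0 were called with only the compared libraries or over 0 to 2 h, and 1, 1 and 1 with straight lines in time. Quantile normalisation gave 0, 1 and 0, no filter gave 0 and 0 in the first pair, no centring gave 4 in the both-labelled series, and keeping zeros and dashes gave 1 in the short-labelled series. Of 64 called decay slopes, 39 were kept in every fit that left out a time or a library and 9 under every other alternative. Called decay slopes numbered 11 to 15 in the long-labelled, 13 to 17 in the short-labelled, 9 to 17 in the both-labelled and 12 to 18 in the control series when a time or library was left out. With no filter they numbered 23 in the long-labelled, 27 in the short-labelled and 27 in the control series, under quantile normalisation 10 in the short-labelled series, and over 0 to 2 h 1, 3, 3 and 6 in the long-labelled, short-labelled, both-labelled and control series. Reversed under quantile normalisation were the decay slopes of LGALS3BP in the long-labelled series (-0.0037), IFITM3 (-0.0245) and ISG15 (-0.0145) in the short-labelled series and ISG15 in the both-labelled series (-0.0156). Over 0 to 2 h, the slope difference of OASL reversed in the short-labelled (-0.0454) and both-labelled (-0.0302) series. The decay slopes of HERC5 in the long-labelled series (0.1114) and of OASL (0.0419) and SAMD9 (-0.0992) in the control reversed there too. The HERC5 slope ran over -0.1011 to 0.0272 in fits that left out a time or library, and reversed without the 6 h libraries or the 6 h long-labelled library (0.0272 in both). The cause was not tested. Libraries were matched by time, which the level and slope fits held as a factor. The depth is unknown, so how far it limits members under 1 FPKM cannot be given.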
